A study of Homo sapiens with 6 samples.

Results

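Long intergenic noncoding RNAs that carry a LINC number as their name were followed across 6 dishes of U251, an established human glioblastoma cell line. The 182 genes described were all those whose symbol is LINC plus digits and whose mean over the 6 dishes reached 0.5 CPM, a raw count divided by the column total and rescaled. They were taken from 57773 genes in the deposited count table, which names 2117 LINC genes of any level and 1144 with a read. The members were chosen by their mean level over both groups, so the levels are a description, and the rule does not use the difference between the groups. Of the 182, 2 genes share the symbol LINC01605 and are named by their IDs.

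The comparison was between 3 dishes of U251 cells that stably carry a lentiviral PD-L1 construct and 3 dishes of U251 cells that stably carry the vector alone. PD-L1, the product of CD274, is a membrane protein that binds the inhibitory receptor PD-1 on T cells. All dishes were grown in medium with 10% fetal bovine serum and harvested 12 h after passage, and libraries were made from 3 µg of total RNA, after poly-T selection, with a kit that does not mark strand. Each group is 1 transduced line, so the p-values measure the spread between dishes, which may be technical, and not between independent transductions.

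A LINC number is a placeholder given to a spliced or polyadenylated RNA that lies apart from protein-coding genes and has no described function, and such genes are usually renamed once a role is shown. Long noncoding RNAs can act in the nucleus on the transcription of nearby genes, as scaffolds for proteins, or as hosts from which microRNAs and small nucleolar RNAs are cut. In glioma, several of them are known as tissue-restricted transcripts whose levels differ between tumour and normal brain.

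Total counts ranged from 15678989 to 19704409 in PD-L1 dishes and from 18797948 to 22270509 in Vector dishes, so that 3 counts correspond to 0.135 to 0.191 CPM. CD274, which checks the labels, averaged 1298 CPM in PD-L1 dishes and 2.41 CPM in Vector dishes. PD-L1 dish 3 stood apart from the other PD-L1 dishes: over all genes chi-square divided by its degrees of freedom was 13.6 and 14.5 against the other PD-L1 dishes and 2.84 between PD-L1 dishes 1 and 2. Among the Vector dishes it was 9.15 and 5.78 for dish 1 against dishes 2 and 3, and 4.87 between dishes 2 and 3. Among 8 glioma and astrocyte markers, 7 were called lower and 0 higher in PD-L1 dishes, with summed levels of 511 to 657 CPM in PD-L1 dishes and 940 to 1119 CPM in Vector dishes. The summed immune markers (PTPRC, CD3E, CD68, CD14) lay at 0.481 to 1.07 CPM in PD-L1 dishes and 0.683 to 1.56 CPM in Vector dishes, and CD68 was at 0 in the Vector dishes. In bulk RNA, fewer cells with a transcript and less of it per cell cannot be told apart.

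The LINC genes were a small and mostly weak part of the transcriptome. They made up 1.15% of the 15761 genes with a mean of at least 0.5 CPM. They held 0.0735%, 0.0753% and 0.0677% of the counts of PD-L1 dishes 1 to 3, against 0.0681%, 0.0690% and 0.0698% in Vector dishes 1 to 3, and the groups overlapped. The mean share was 0.0722 ± 0.00399% in PD-L1 dishes and 0.0689 ± 0.000859% in Vector dishes (SD, n = 3 each).

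Most members were lightly counted. By the mean CPM that chose them, 65 lay from 0.5 to under 1 CPM, 36 from 1 to under 2, 43 from 2 to under 5, and 38 at 5 CPM or more, with a median of 1.48 CPM. The 10 most counted members held 32% of all LINC counts. LINC00963, at 45.8 CPM, had the highest count, and its level of 44.8 ± 0.242 CPM in PD-L1 dishes and 46.9 ± 1.38 CPM in Vector dishes gave a log2 fold change of -0.07 ± 0.08 (SE). No member was without counts in any dish, and the lowest count of any member in a dish was 3. GENCODE 29 lists 139 of the 182 as lincRNA, 17 as processed transcripts, 10 as antisense, 7 as transcribed unprocessed pseudogenes and 1, LINC02693, as protein-coding, and members lay on 23 chromosomes.

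Per kilobase of exon, a scale on which genes of different length can be set side by side, the members ran from 0.0354 to 10.4 CPM per kb, with a median of 0.757. The highest was LINC02802 at 10.4 CPM per kb, of which 96.9% of the longest transcript matches another locus at 95% identity or more. LINC01605 (ENSG00000253414) followed at 7.80, LINC00674 at 7.25, LINC00888 at 6.99, LINC01521 at 6.16 and LINC03057 at 6.03 CPM per kb. Of LINC00674, 50% of the transcript has a near-identical copy. Reads of these loci may match more than 1 place, so their counts are uncertain. None of these 6 passed the test between PD-L1 and Vector dishes, and their log2 fold changes lay between -0.14 and 0.26.

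At the threshold that chose the members, LINC02076 had a mean of 0.5157 CPM and LINC02585 one of 0.5161 CPM. Just outside it, LINC02202 had 0.4987 CPM and LINC01977 had 0.4986 CPM. LINC02076 had 15, 6 and 11 counts in PD-L1 dishes and 6, 12 and 10 counts in Vector dishes.

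A small share of these RNAs was called different between the lines, as was the case for all genes. Of the 182 members, 178 passed the filter on low counts and were tested, and at a false discovery rate (FDR) of 0.05 over all 15818 genes tested, 3 were higher and 9 were lower in PD-L1 dishes. These 12 calls are 6.74% of the tested members, against 8.75% of all genes tested. In the higher direction the share was 1.69% of members and 1.55% of all genes. In the lower direction it was 5.06% of members and 7.20% of all genes, so neither share was far from its background. The median SE of the log2 fold change was 0.27 for tested members and 0.11 for all genes tested. A member that was not called may therefore still have changed. The 4 members left out of the test were LINC02585, LINC02475, LINC02055 and LINC00052.

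The groups did not overlap, with every PD-L1 dish above every Vector dish, for 19 tested members (10.7%), against 12.1% of all genes tested. They did not overlap in the opposite direction for 21 tested members (11.8%), against 15.5% of all genes. The median log2 fold change was 0.10 over tested members and 0.018 over all genes. A value above 0 was found for 110 of 178 members (61.8%), against 53.6% of all genes. Other long noncoding RNA genes had a median of 0.18, with 70.5% above 0, so the shift was not particular to LINC genes. Changes were small for most, since 130 members had an absolute log2 fold change under 0.5 and 8 had one of at least 1, of which 4 were called. An unadjusted p under 0.05 was found for 38 members, 18 of them above 0 and 20 below. That is 21.3% of tested members and 23.6% of all genes.

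**Figure D1:**
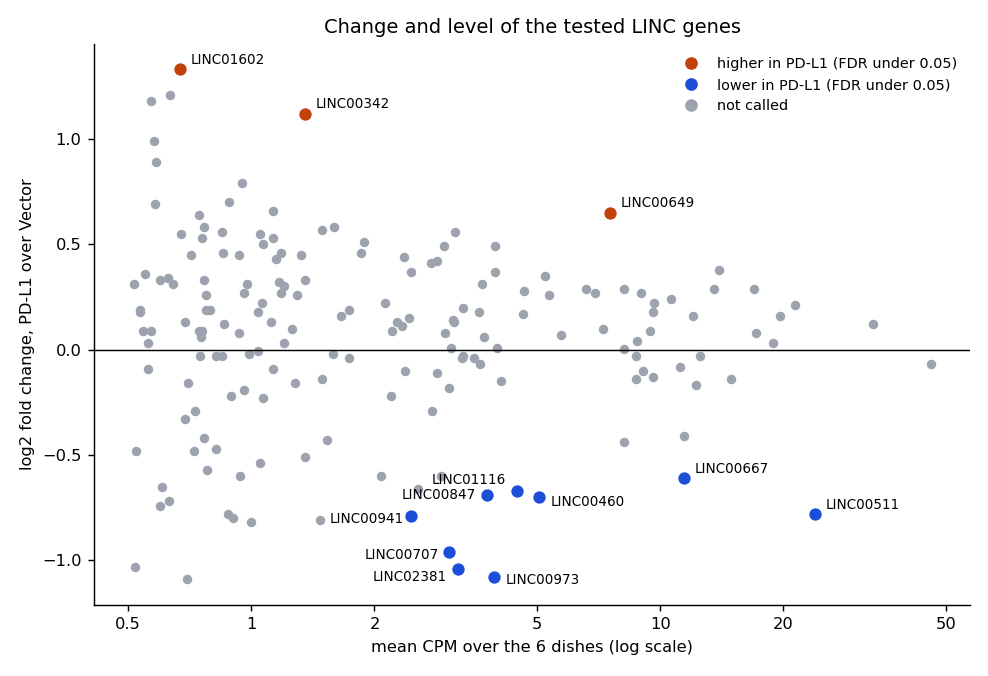
Each point is 1 of the 178 tested LINC genes, with the mean CPM over the 6 dishes on a log scale along the x axis and the log2 fold change of PD-L1 over Vector dishes on the y axis. The 3 orange points are called higher and the 9 blue points lower at an FDR of 0.05, and the blue points lie at 2 CPM or more while 2 of the 3 orange points lie below that.

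Where on the scale of levels the calls fell can be read beside other genes. Of 97 tested members under 2 CPM, 0 were called lower by edgeR, DESeq2 or limma-voom. DESeq2 gave no adjusted p to some members at this level, such as LINC00601, and could not call those. Among all genes, edgeR called 1.92% lower from 0.5 to under 1 CPM and 4.19% from 1 to under 2 CPM. Of the 97 members, 6 had a log2 fold change below 0 with an unadjusted p under 0.05. From 2 to under 5 CPM, 6 of 43 members (14.0%) were lower, against 7.68% of all genes at that level. At 5 CPM or more, 3 of 38 members (7.89%) were lower, against 8.14% of all genes. Other long noncoding RNA genes had 20 lower calls among 1094 tested (1.83%), and protein-coding genes had 1079 among 13398 (8.05%). The spread between dishes was level-dependent: the median SD within a group was 0.39 log2 units both for LINC genes and for protein-coding genes from 0.5 to under 1 CPM, and 0.15 and 0.11 log2 units at 5 CPM or more. These counts and medians are descriptions, and no test of the list was made.

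**Figure D2:**
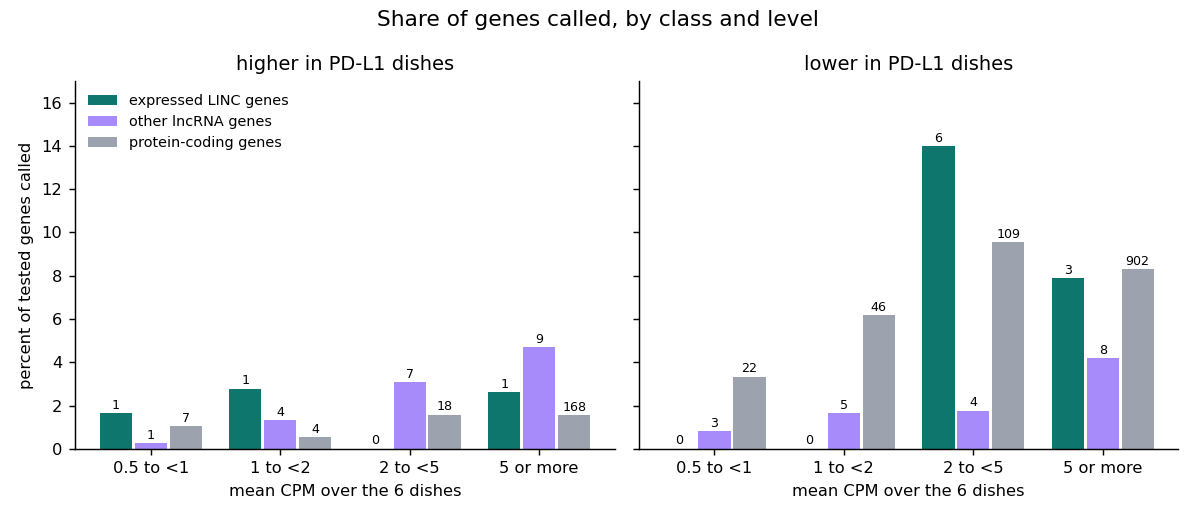
Bars give the percent of tested genes called higher (left panel) or lower (right panel) in PD-L1 dishes at an FDR of 0.05, by class of gene and by mean CPM over the 6 dishes, with the number of called genes above each bar. The LINC bars rest on 0 to 6 genes each, and the highest, at 14.0%, is the bar for genes lower in PD-L1 dishes from 2 to under 5 CPM.

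The deepest-counted of the lower genes was LINC00511, on chromosome 17, a long noncoding RNA described as promoting growth in several carcinomas. It had 16.4, 19.6 and 17.2 CPM in PD-L1 dishes 1 to 3, against 33.9, 27.9 and 29.2 CPM in Vector dishes 1 to 3. Every PD-L1 dish lay below every Vector dish by more than the spread within either group. LINC00511 was 1.71-fold lower (log2 fold change -0.78 ± 0.11, SE), with an adjusted p of 0.000604 in edgeR's quasi-likelihood test. With raw counts of 318 to 337 per PD-L1 dish and 543 to 737 per Vector dish, it had the smallest standard error of the 12. It shares 35 exonic bases with an unnamed lincRNA on the opposite strand, which averaged 0.0383 CPM in PD-L1 dishes and 0.0486 CPM in Vector dishes.

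LINC00973, LINC02381 and LINC00707 had the 3 largest fitted decreases among the called genes, on fewer counts than LINC00511 and with larger errors. LINC00973, on chromosome 3, a transcript described in renal carcinoma as raising the immune checkpoint molecule SIGLEC15, had 1.95, 2.40 and 3.32 CPM in PD-L1 dishes, against 4.96, 6.49 and 4.68 CPM in Vector dishes. It was 2.11-fold lower (log2 fold change -1.08 ± 0.21, adjusted p = 0.00616). LINC02381, on chromosome 12 near the HOXC cluster, had 2.05, 1.66 and 2.62 CPM in PD-L1 dishes, against 4.64, 4.59 and 3.82 CPM in Vector dishes. In both genes the groups were separate, and PD-L1 dish 3 was the PD-L1 dish nearest to the Vector dishes. LINC02381 was 2.05-fold lower (log2 fold change -1.04 ± 0.20, adjusted p = 0.0053). LINC00707, on chromosome 10, had 1.85, 2.58 and 1.82 CPM in PD-L1 dishes, against 3.68, 4.34 and 4.09 CPM in Vector dishes. It was 1.95-fold lower (log2 fold change -0.96 ± 0.19, adjusted p = 0.00768), and here PD-L1 dish 3 lay beside PD-L1 dish 1 at the low end.

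LINC00460, on chromosome 13, has been described in the invasion of several carcinomas. It had 4.14, 3.45 and 4.01 CPM in PD-L1 dishes, against 6.85, 5.96 and 6.07 CPM in Vector dishes, which left a clear gap between the groups. Its log2 fold change was -0.70 ± 0.15, a 1.62-fold decrease, with an adjusted p of 0.0112. LINC01116, on chromosome 2, has been described as promoting glioma growth. It had 3.90, 3.38 and 3.05 CPM in PD-L1 dishes, against 5.65, 5.47 and 5.38 CPM in Vector dishes, with the Vector dishes close together. LINC01116 was 1.59-fold lower (log2 fold change -0.67 ± 0.16, adjusted p = 0.0166).

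LINC00941, on chromosome 12, has been described in carcinoma metastasis. It had 1.56, 1.48 and 2.41 CPM in PD-L1 dishes, against 3.26, 3.17 and 3.01 CPM in Vector dishes, and PD-L1 dish 3 stood between the other PD-L1 dishes and all Vector dishes. Its fitted change was -0.79 ± 0.22 log2 units, with an adjusted p of 0.0367. LINC00847, on chromosome 5, had 2.44, 2.65 and 3.64 CPM in PD-L1 dishes, against 5.06, 4.2 and 4.78 CPM in Vector dishes. It too was nearest to the Vector dishes in PD-L1 dish 3, and it was 1.61-fold lower (log2 fold change -0.69 ± 0.19, adjusted p = 0.0348). LINC00667, on chromosome 18, had 7.65, 9.72 and 9.84 CPM in PD-L1 dishes, against 15.4, 13.2 and 12.7 CPM in Vector dishes. It was 1.52-fold lower, the least of the 9 (log2 fold change -0.61 ± 0.13, adjusted p = 0.0118). In all, PD-L1 dish 3 was the highest PD-L1 dish for 5 of the 9 lower genes. As a group these 9 had medians of -0.91, -0.80 and -0.67 log2 units relative to the Vector mean in PD-L1 dishes 1 to 3, against 0.10, -0.0078 and -0.05 in Vector dishes 1 to 3. The glioma and astrocyte markers given above moved in the same direction, and their part in this result was not tested.

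**Figure D3:**
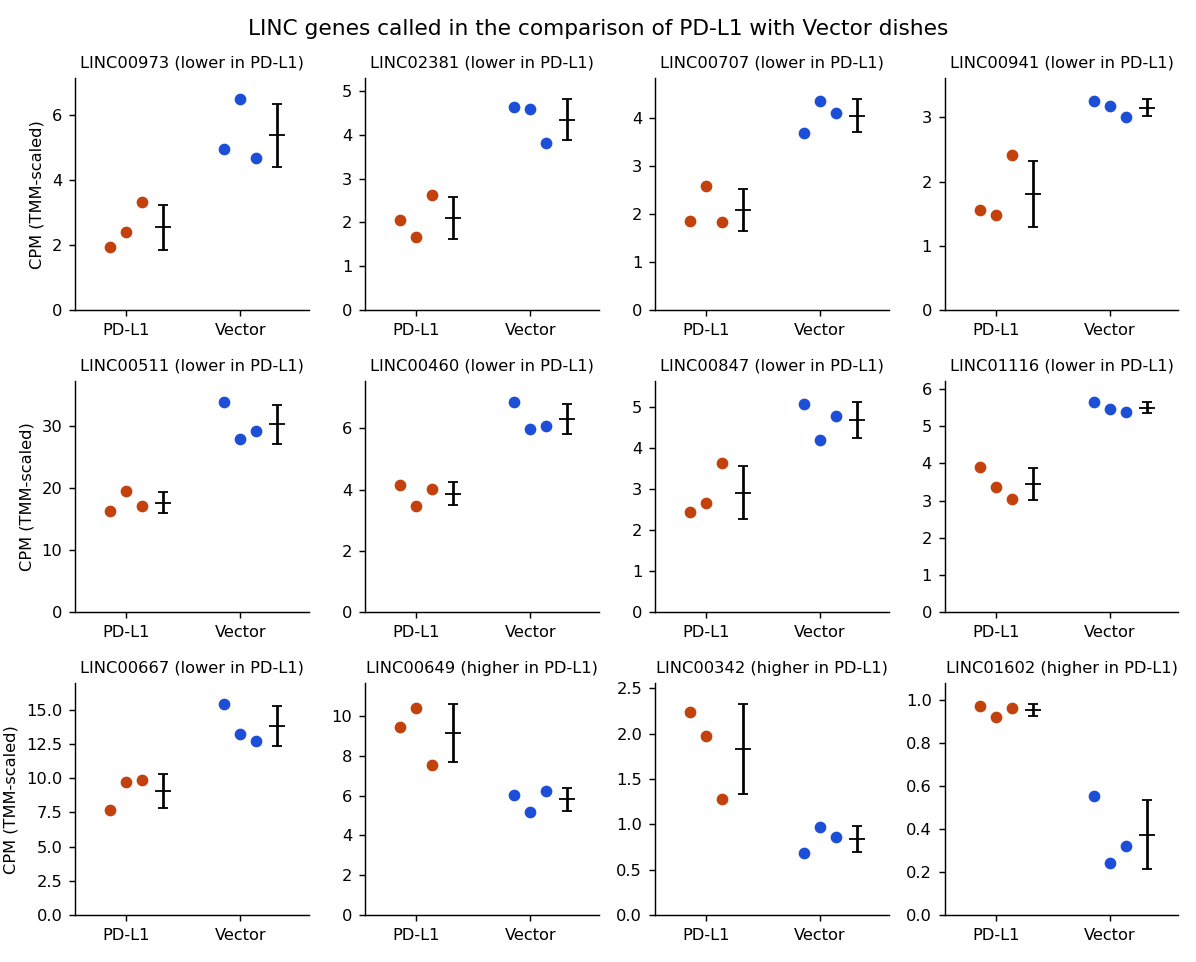
Each panel shows 1 called LINC gene, with the TMM-scaled CPM of the 3 PD-L1 dishes (orange) left of the 3 Vector dishes (blue), dishes 1 to 3 from left to right, and the mean with its SD as a black bar. The groups do not overlap in any of the 12 panels, and the y axes differ, with up to 33.9 CPM for LINC00511 and under 1 CPM for LINC01602.

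There were 3 members that rose. LINC00649, on chromosome 21, had 9.45, 10.4 and 7.54 CPM in PD-L1 dishes, against 6.02, 5.17 and 6.24 CPM in Vector dishes. Its increase was 1.57-fold (log2 fold change 0.65 ± 0.15, adjusted p = 0.0159). LINC00342, on chromosome 2, had 2.24, 1.97 and 1.28 CPM in PD-L1 dishes, against 0.689, 0.976 and 0.860 CPM in Vector dishes. Both genes were lowest among the PD-L1 dishes in dish 3, although still above every Vector dish. LINC00342 was 2.18-fold higher (log2 fold change 1.12 ± 0.29, adjusted p = 0.0275), but 92.9% of its longest transcript has a copy elsewhere at 96.7% identity, so its counts are uncertain. LINC01602, on chromosome 8, had 20, 15 and 18 counts in PD-L1 dishes, against 12, 5 and 6 counts in Vector dishes. With levels of 0.953 ± 0.027 CPM in PD-L1 dishes and 0.373 ± 0.16 CPM in Vector dishes (SD, n = 3 each), its log2 fold change was 1.33 ± 0.37 with an adjusted p of 0.0386.

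The calls differed in how far they depended on single dishes. LINC00973, LINC02381, LINC00707 and LINC00511 were called in each of 6 fits that left out 1 dish and in 9 other settings with all dishes. LINC00460, LINC01116, LINC00667 and LINC00649 were also called in all 9 settings with every dish, but in 2 to 4 of the 6 fits with a dish left out. LINC00847 and LINC01602 passed in 2 of those 6, and LINC00941 and LINC00342 in 1. All 12 were called without PD-L1 dish 3, the dish that stood apart. In that fit LINC00973 was at -1.32, LINC02381 at -1.22, LINC00941 at -1.05 and LINC00342 at 1.33 log2 units, each further from 0 than with all dishes, while LINC00707 was at -0.88 and LINC01116 at -0.59.

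**Figure D4:**
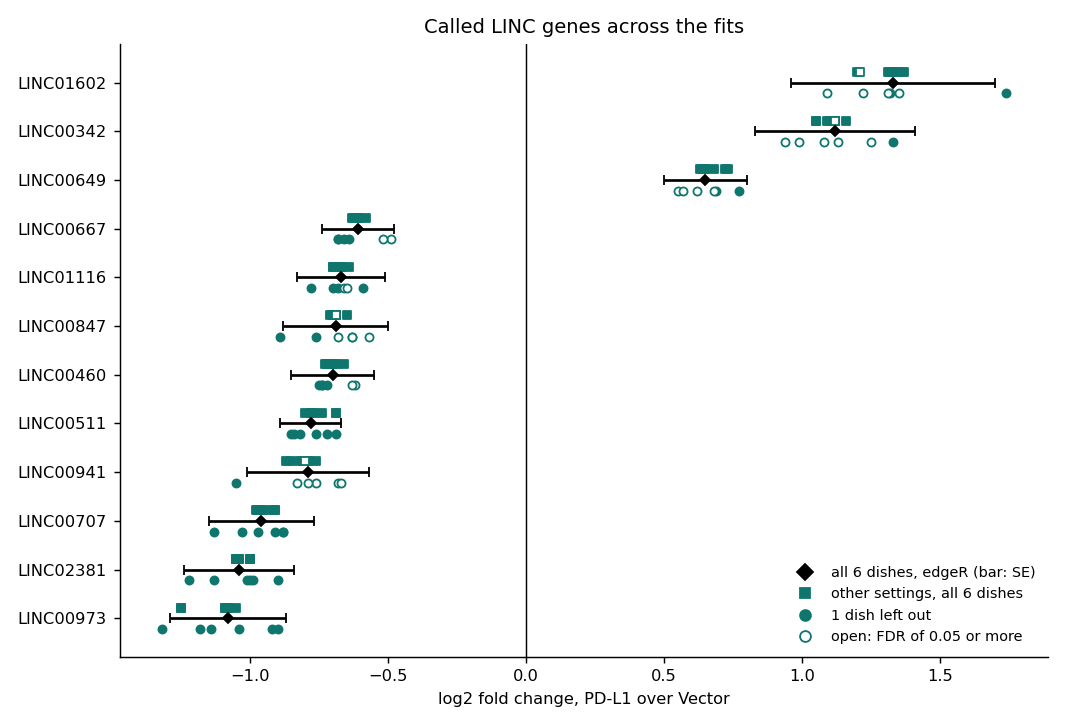
Log2 fold changes of the 12 called LINC genes, PD-L1 over Vector dishes, with the fit on all 6 dishes as a black diamond with its SE, other settings on all 6 dishes as squares and fits without 1 dish as circles. Open symbols did not pass an FDR of 0.05, and they are absent for LINC00511, LINC00707, LINC02381 and LINC00973, while no symbol crosses 0.

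Removing PD-L1 dish 3 also widened the set. It gave 12 higher and 16 lower members, with 16 calls that were not made with all dishes, 9 of them higher and 7 lower. At the same time 21.6% of all genes tested were called in that fit, so the rise was not limited to LINC genes. Without Vector dish 1 the counts were 1 higher and 4 lower, and 3.37% of all genes were called.

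Promoter sequence was available for part of the set. RefSeq start windows, which run from 250 bases before to 50 bases after a start, matched 116 of the 182 members and 8 of the 12 called ones. They were searched on both strands for the AP-1 motif, written TGACTCA or TGAGTCA and bound by FOS and JUN dimers, and for the GC box GGGCGG bound by SP1. The AP-1 motif stood in 4.95% of 35116 windows of all genes, and in 14 of 138 windows of members (10.1%). Among the 8 lower genes with a window it stood in windows of 2, LINC00460 and LINC00973. The windows with it are shown with the motif in capitals, 5′ to 3′ on the strand of the gene, from RefSeq on GRCh38.p14. They are chr13:106376314-106376613 on the plus strand for LINC00460 and, for LINC00973, which has 4 annotated starts, chr3:98966834-98967133 (start 3) and chr3:98980805-98981104 (start 4) on the plus strand. Starts 1 and 2 of LINC00973 hold no AP-1 motif in their windows. The windows of the other lower genes with one held no such motif. That of LINC00511, the gene with the smallest error, is given beside them with its GC box in capitals, chr17:72640423-72640722 on the minus strand.
LINC00460: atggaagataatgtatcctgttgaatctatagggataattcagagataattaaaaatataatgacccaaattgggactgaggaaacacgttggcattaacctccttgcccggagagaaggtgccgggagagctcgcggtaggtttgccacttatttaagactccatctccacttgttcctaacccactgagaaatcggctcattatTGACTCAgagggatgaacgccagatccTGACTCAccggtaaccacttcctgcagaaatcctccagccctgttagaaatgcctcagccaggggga
LINC00973, start 3 of 4: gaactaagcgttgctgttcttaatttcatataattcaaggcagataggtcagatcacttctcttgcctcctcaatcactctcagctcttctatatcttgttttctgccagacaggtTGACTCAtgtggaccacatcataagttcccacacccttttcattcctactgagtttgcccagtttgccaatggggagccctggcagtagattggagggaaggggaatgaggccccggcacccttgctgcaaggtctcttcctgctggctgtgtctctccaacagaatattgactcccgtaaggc
LINC00973, start 4 of 4: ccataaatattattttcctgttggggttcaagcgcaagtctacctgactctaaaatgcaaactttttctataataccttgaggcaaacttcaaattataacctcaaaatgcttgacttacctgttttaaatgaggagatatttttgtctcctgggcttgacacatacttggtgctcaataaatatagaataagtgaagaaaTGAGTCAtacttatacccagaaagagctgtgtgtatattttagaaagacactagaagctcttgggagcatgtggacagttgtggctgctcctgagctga
LINC00511: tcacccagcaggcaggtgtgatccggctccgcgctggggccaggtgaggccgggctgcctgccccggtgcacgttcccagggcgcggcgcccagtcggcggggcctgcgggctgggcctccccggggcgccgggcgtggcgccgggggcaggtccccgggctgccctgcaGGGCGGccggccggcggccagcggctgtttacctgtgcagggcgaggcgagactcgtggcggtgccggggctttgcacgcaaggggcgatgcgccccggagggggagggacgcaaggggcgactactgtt
The 2 motifs of LINC00460 both lie in the 50 bases before its start, as does that of start 4 of LINC00973. The windows also differed in base composition, with 78% G and C and 35 CpG pairs in LINC00511, 46.7% and 8 pairs in LINC00460, and 37.3% and 1 pair at start 4 of LINC00973. The GC box stood in 45% of all windows and in 74 of 138 windows of members (53.6%), including those of LINC02381, LINC00941, LINC00511, LINC00847, LINC01116 and LINC00667. The CCAAT box and the TATA box were also searched for. The CCAAT box stood in 44.9% of member windows and 34.6% of all windows, and the TATA box in 15.9% and 11.5%. Among the 8 lower genes with a window, the GC box stood in 6, the CCAAT box in 4 and the TATA box in 1. A match describes the letters of these windows and was not tested as a binding site.

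Some members with a described role did not pass the test. LINC00461 is a brain-expressed RNA whose locus gives rise to the microRNA miR-9, an abundant regulator of neural progenitors. It had 9.69, 11.1 and 8.66 CPM in PD-L1 dishes, against 15.6, 11.3 and 12.0 CPM in Vector dishes. The groups were separate by a narrow margin, between 11.1 CPM in PD-L1 dish 2 and 11.3 CPM in Vector dish 2. With a log2 fold change of -0.41 ± 0.14, the adjusted p of 0.101 in edgeR's test did not pass. It did pass in edgeR's fits without the low-count filter (adjusted p = 0.0266) and with an offset for GC content and length (adjusted p = 0.0412). LINC00472, another host, carries the genes of 2 miR-30 family members, and had a log2 fold change of -0.23 (adjusted p = 0.738). The mature microRNAs of both loci are given, from RefSeq on GRCh38.p14 and 5′ to 3′, to show their seeds (bases 2 to 8, in capitals). The miR-9 gene shares 87 bases with exons of LINC00461. The miR-30a and miR-30c genes lie within LINC00472 but share 0 bases with its exons. All lie on the minus strand, at chr5:88666902-88666924 (miR-9-5p), chr5:88666866-88666887 (miR-9-3p), chr6:71403595-71403616 (miR-30a-5p), chr6:71403554-71403575 (miR-30a-3p), chr6:71377003-71377025 (miR-30c-5p) and chr6:71376964-71376985 (miR-30c-2-3p). Poly-A libraries of this kind count the host and not the mature microRNA.
hsa-miR-9-5p (LINC00461): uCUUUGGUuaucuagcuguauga
hsa-miR-9-3p (LINC00461): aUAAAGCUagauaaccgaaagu
hsa-miR-30a-5p (LINC00472): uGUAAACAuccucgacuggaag
hsa-miR-30a-3p (LINC00472): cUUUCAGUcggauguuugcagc
hsa-miR-30c-5p (LINC00472): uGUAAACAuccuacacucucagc
hsa-miR-30c-2-3p (LINC00472): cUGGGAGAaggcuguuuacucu
The 5p arms from LINC00472 share 1 seed, and each of the other arms carries a seed of its own. The 2 further hosts, of small nucleolar RNAs, were LINC00888 and LINC03069, with log2 fold changes of -0.14 (adjusted p = 0.461) and 0.53 (adjusted p = 0.303).

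LINC00632, the precursor of the circular RNA CDR1as, had 4.92, 6.64 and 5.99 CPM in PD-L1 dishes, against 4.23, 5.13 and 4.35 CPM in Vector dishes. The groups overlapped, and the log2 fold change of 0.35 ± 0.16 did not pass (adjusted p = 0.208). LINC00665 and LINC00467, both described as carrying small open reading frames that are translated, were among the most counted members. LINC00665 averaged 17.6 ± 0.489 CPM in PD-L1 dishes and 16.6 ± 2.30 CPM in Vector dishes (SD, n = 3 each), with a log2 fold change of 0.08 ± 0.11 (adjusted p = 0.707). LINC00467 averaged 20.6 ± 1.07 CPM in PD-L1 dishes and 18.5 ± 1.57 CPM in Vector dishes, with a log2 fold change of 0.16 ± 0.10 (adjusted p = 0.366). The groups overlapped for both genes.

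Because the kit does not mark strand, reads from a gene and an antisense partner cannot be told apart where their exons overlap. In GENCODE 29, 38 members share exonic bases with a gene on the opposite strand and 21 with a gene on the same strand, and 51 have either kind of overlap. Among the 38 with an opposite partner, 1 was higher and 4 were lower (13.2% called), and among 118 tested members with no overlap, no divergent partner and no hosted RNA, 2 were higher and 3 lower (4.24%), beside 8.75% of all genes tested. The median level was 2.64 CPM in the group with an opposite partner and 1.32 CPM in the group with none. Among members free of exonic overlap on either strand, 2 were higher (LINC00342, LINC01602) and 3 lower (LINC00973, LINC02381, LINC00460). Counting a pair of members once, 12 pairs of a member and an opposite partner had both genes tested, 8 pairs had the same sign, and in 0 pairs were both called.

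One such pair among the called genes was LINC00667 with LINC00526, itself a member, which share 773 exonic bases on opposite strands of chromosome 18. LINC00526 had 0.633, 0.554 and 0.749 CPM in PD-L1 dishes, against 1.01, 1.22 and 1.13 CPM in Vector dishes. Its log2 fold change was -0.78 ± 0.30, in the direction of LINC00667 but with an adjusted p of 0.124, and reads in the shared bases cannot be assigned to either. LINC00649 shares 300 exonic bases with ATP5PO, a subunit of mitochondrial ATP synthase, on the opposite strand. ATP5PO averaged 8.09 CPM in PD-L1 dishes and 7.42 CPM in Vector dishes (log2 fold change 0.12 ± 0.15, adjusted p = 0.658). By these counts LINC00649 was called and its partner was not. LINC00649 also shares 243 bases with an unnamed protein-coding gene on the opposite strand, at 0 CPM in both groups. How reads in shared bases were counted was not given, so the counts may leave out part of each gene. LINC01116 shares 222 bases with LINC01117, which was almost uncounted at 0.0178 CPM in PD-L1 dishes and 0.0785 CPM in Vector dishes. LINC00632 shares 789 bases with CDR1, at 0.815 CPM in PD-L1 dishes and 0.317 CPM in Vector dishes (log2 fold change 1.38 ± 0.41, adjusted p = 0.0519). LINC00847 shares 514 bases with HEIH and LINC00707 shares bases with 3 genes on its own strand, none of which has a value of its own here.

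Genes that start within 1 kb of each other on opposite strands are often transcribed from one shared promoter region. Of 11 members that start so near a protein-coding gene, 10 could be set beside a tested partner, and 6 pairs had the same sign. LINC00941 starts 216 bases from CAPRIN2, an RNA-binding protein gene. CAPRIN2 averaged 17.7 CPM in PD-L1 dishes and 17.7 CPM in Vector dishes, a log2 fold change of -0.0010 ± 0.10, while LINC00941 fell. LINC00649 starts 446 bases from ATP5PO, given above.

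The nearest tested protein-coding genes were also set beside the 12 called members, with distances between start sites in GENCODE 29. The nearest gene had the same sign as the member in 10 of 12 cases, CAPRIN2 at -0.0010 among them, and the second nearest in 5 of 12. Other nearest genes of the same sign also lay within their SE of 0. They were SLC39A11 (-0.05 ± 0.12), MGAT1 (-0.06 ± 0.09), ATP5PO (0.12 ± 0.15) and FAM110B (0.07 ± 0.13), so the sign count carries little weight. In 2 cases the nearest gene was itself called, in the same direction, where 8.75% of all genes tested were called. DCBLD2, a transmembrane receptor gene 79.4 kb from LINC00973, was lower at 249 CPM in PD-L1 dishes and 452 CPM in Vector dishes (log2 fold change -0.86 ± 0.10, adjusted p = 0.000177). The next tested gene from LINC00973, the sialyltransferase gene ST3GAL6 at 249 kb, was higher (log2 fold change 0.45 ± 0.12, adjusted p = 0.0345). EFNB2, which encodes the ligand ephrin-B2 and lies 161 kb from LINC00460, was lower at 57.1 CPM in PD-L1 dishes and 82.5 CPM in Vector dishes (log2 fold change -0.53 ± 0.08, adjusted p = 0.00136). SOX9, a transcription factor of astrocytes and glioma stem cells and the second gene from LINC00511 at 519 kb, was lower at 30.9 CPM in PD-L1 dishes and 56.0 CPM in Vector dishes (log2 fold change -0.86 ± 0.13, adjusted p = 0.00146). SLC39A11, the zinc transporter gene nearer to LINC00511 at 452 kb, had a log2 fold change of -0.05 ± 0.12 (adjusted p = 0.828). HOXC4, the second gene from LINC02381 at 109 kb, and HOXD3, the second gene from LINC01116 at 501 kb, had log2 fold changes of 0.19 ± 0.20 (adjusted p = 0.598) and 0.23 ± 0.21 (adjusted p = 0.534). Whether a member and its neighbour move together was not tested.

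Beside the members stood a hand-picked list of 16 noncoding or small-peptide genes, 13 of which RefSeq lists with a LINC number as a synonym. Of 15 tested, 1 was higher and 2 were lower, with a median log2 fold change of -0.03, against 8.75% called and a median of 0.018 over all genes tested. All 106 tested genes at 0.5 CPM or more with such a synonym and another symbol had 4 higher and 4 lower calls (7.55%). CYTOR, a cytoplasmic RNA described in carcinoma invasion, had 12.4, 11 and 15.8 CPM in PD-L1 dishes, against 18.4, 19.6 and 16.9 CPM in Vector dishes (log2 fold change -0.48 ± 0.13, adjusted p = 0.0350). MIR31HG, the host of miR-31, was lower at 0.269 ± 0.138 CPM in PD-L1 dishes and 0.814 ± 0.148 CPM in Vector dishes (adjusted p = 0.0324). PURPL, a p53-regulated RNA, was the higher one, at 15.4 ± 2.30 CPM in PD-L1 dishes and 8.90 ± 1.29 CPM in Vector dishes (adjusted p = 0.0037). NORAD, which binds PUMILIO proteins and was far more counted than any member, had 298, 322 and 247 CPM in PD-L1 dishes, against 240, 240 and 264 CPM in Vector dishes. Its groups overlapped, and its log2 fold change of 0.22 ± 0.09 did not pass (adjusted p = 0.171). DANCR and the peptide genes NBDY, MTLN, SMIM26 and SMIM30 lay between -0.16 and 0.14 log2 units, and none of them passed.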

How the data were processed

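Whole-number counts of Ensembl genes were deposited by the authors for 6 dishes, with normalized counts on a signal scale, found to be the raw counts over 1 factor per dish, which served only for the share of LINC counts. CASAVA 1.8, STAR 2.5.1b, HTSeq 0.6.0 and build hg19 are named, per the submitters' processing notes. The annotation and strand setting were not given in the sources used here. Groups came from the sample titles.

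Raw counts of all genes were fitted in R 4.3.3 with edgeR 4.0.16 (filterByExpr, TMM, robust quasi-likelihood F test, no covariates), with Benjamini-Hochberg FDR under 0.05 over 15818 genes. The fit was tested on simulated data. Log2 fold changes are PD-L1 over Vector, and CPM values by dish are TMM-scaled. The members, lists and comparisons were chosen with earlier results of these data known.

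A table of gene names (51996 IDs) gave the symbols, and GENCODE 29 gave that of 1 member. GENCODE 29 uses another build (GRCh38) than the counts, so it served only for gene types, exonic lengths, overlaps and distances. Copies were sought with blastn 2.17.0 (at least 300 bases at 95% identity), and start windows and microRNAs are from RefSeq. The genes named are all called members, the 6 highest per kilobase of exon, those at the threshold, members with a described role, and partners of called members. LINC00963, LINC00472, LINC00888, LINC03069, the neighbours, and members named only for a change that did not pass were chosen after their values were seen. Alternatives were other scalings, DESeq2 1.42.0, limma-voom (limma 3.58.1), other filters and thresholds, a replicate block, an offset for GC content and exonic length, and each dish left out. Members by RefSeq synonym and the omission of near-identical copies were added after the data were seen.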

Additional observations from a re-analysis of the deposited data

How the results depend on the processing

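The 9 lower and 3 higher calls kept their direction in every fit that gave them a value. The lower count was 9 with limma-voom, upper-quartile scaling and relative log expression, 7 with DESeq2, 13 without a low-count filter and 11 with the offset for GC content and length. The higher count was 1 with DESeq2 and 8 with the offset. At an FDR of 0.01 there were 0 higher and 4 lower (edgeR). Leaving out 1 dish gave 0 to 12 higher and 4 to 16 lower members. The counts moved by more than 1.5 times without PD-L1 dish 1 (0 higher), PD-L1 dish 2 (0 higher, 5 lower), PD-L1 dish 3 (12 higher, 16 lower), Vector dish 1 (1 higher, 4 lower), Vector dish 2 (0 higher) and Vector dish 3 (1 higher). Members with no exonic overlap had 3 lower calls, with 3.94% called in either direction against 6.74% of all tested members. With genes of a RefSeq LINC synonym added, 7 were higher and 13 lower. The planned use of older symbols from the table of gene names was not run, because it lists none of this form. With the replicate block 3 were higher and 10 lower, and with block and offset 2 and 10. Deviations of same-numbered dishes from their group means correlated at -0.212, -0.0512 and -0.192 over genes. Differently numbered pairs correlated at -0.0766 to 0.232. Because deviations within a group are tied to each other, these values cannot decide whether the numbers mark a shared batch. Uncalled members near 0 changed sign. LINC02802 was at 0.0020 under upper-quartile factors and from -0.19 to 0.08 with 1 dish left out (0.08, 0.0094 and 0.03 without PD-L1 dish 1, PD-L1 dish 3 and Vector dish 2). LINC01605 (ENSG00000253414) was at -0.0082 without the filter, -0.07 with the offset, -0.07 with block and offset, and from -0.03 (PD-L1 dish 3) to 0.06 with 1 dish left out, with -0.01 when that was Vector dish 1. LINC00665 ranged from -0.02 (Vector dish 3 left out) to 0.19. The cause of these differences was not tested. Depth limits the members under 1 CPM most: their median SE was 0.36 log2 units, against 0.13 at 5 CPM or more.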

Other observations

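Some members came near the threshold or had a fitted change as large as the called genes without passing the FDR of 0.05, and they were picked here after their values were seen. LINC01270 had 0.926, 0.861 and 0.855 CPM in PD-L1 dishes, against 0.552, 0.293 and 0.269 CPM in Vector dishes, so that the fitted change was 1.21 ± 0.37 log2 units (adjusted p = 0.0592 in edgeR's test). It passed with limma-voom and with the offset for GC content and length. LINC00641, at 15.6 ± 2.11 CPM in PD-L1 dishes and 12.0 ± 0.769 CPM in Vector dishes (SD, n = 3 each), had a log2 fold change of 0.38 ± 0.12 (adjusted p = 0.0696) and passed under upper-quartile factors and when PD-L1 dish 3 was left out. LINC00601 had the lowest log2 fold change of the tested members, -1.09 ± 0.39, on 0.448 ± 0.215 CPM in PD-L1 dishes and 0.957 ± 0.253 CPM in Vector dishes (adjusted p = 0.101), and passed when PD-L1 dish 3 was left out (adjusted p = 0.0186). LINC02055 was left out of the test by the filter on low counts. It averaged 0.237 ± 0.0738 CPM in PD-L1 dishes and 0.886 ± 0.476 CPM in Vector dishes, and edgeR called it lower without that filter (adjusted p = 0.00173), with a filter at a mean of 0.5 CPM (adjusted p = 0.0327), and when PD-L1 dish 3 or Vector dish 3 was left out (adjusted p = 0.0307 and 0.00726). DESeq2 gave it no adjusted p. The 2 genes that share the symbol LINC01605 had different fitted values, and the difference was not tested. ENSG00000253161 was at 6.99 ± 1.18 CPM in PD-L1 dishes and 9.41 ± 1.35 CPM in Vector dishes (log2 fold change -0.44 ± 0.15, adjusted p = 0.101). It passed without the low-count filter (adjusted p = 0.0403), with the offset (adjusted p = 0.0402) and without PD-L1 dish 3 (adjusted p = 0.00945). ENSG00000253414 was at 3.99 ± 0.217 CPM in PD-L1 dishes and 3.97 ± 0.0917 CPM in Vector dishes.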
